A study of Rattus with 9 samples.

Results

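The 9 genes described here are the Notch receptors Notch1, Notch2, Notch3 and Notch4, the ligands Jag1, Jag2 and Dll4, and the target genes Hes1 and Hey1. They were chosen by name, as the rows of the feature tables that carry these symbols, among 23836 gene symbols in all, and each of the 9 was found. Their transcripts were counted in single cells from the bile duct of rats, in 20 droplet libraries that the labels place in 9 samples. The 3 samples labelled sham had 1 library each, and no transplant is named for them. The transplant samples (labelled ctrl) came from liver grafts with ischemic injury, and they were taken 1, 3 and 7 days after transplantation, with 3 libraries on each day. The raised-flow samples (labelled treat) came from the same graft model, in which the splenic and gastroduodenal arteries were also tied off to raise arterial flow, on days 1, 3 and 7, with 3, 2 and 3 libraries.

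The labels give neither strain, sex nor age. A graft can hold cells of the donor and of the host, and the counts do not separate them. No source used here says whether the libraries of 1 transplanted sample came from different rats, so the libraries were summed and the sample was the unit of every test. The p-values therefore measure the spread between these samples only, and each day of each arm is 1 sample.

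Notch receptors are membrane proteins that are activated by ligands on a neighbouring cell. Ligand binding exposes the receptor to ADAM proteases and then to gamma-secretase, and the released intracellular part joins Rbpj and Mastermind proteins on DNA to switch on genes of the Hes and Hey families. In bile ducts the pathway is known for Jag1 and Notch2, which are needed for duct formation in the embryo, and in blood vessels it is known for arterial identity and for the coating of vessels by Notch3-bearing mural cells.

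After filters on genes, mitochondrial reads, haemoglobin reads and doublets, 139773 cells were kept, between 2284 and 31747 a sample, in 43 clusters. Total UMIs per library, a UMI being 1 counted molecule, ranged from 14398295 to 109245177. The 2 smaller transplant day 3 libraries kept 437 and 337 cells, because 2479 of 2923 and 3966 of 4312 barcodes exceeded the haemoglobin limit of 3%, so results were also computed without them. Cell barcodes found in both of any pair of libraries of 1 sample came to 0.395% or less, and no pair of libraries of 1 sample agreed within sampling noise. Clusters were named only from marker genes, and the genes of the Notch pathway were kept out of both the clustering and the markers. The markers that gave the names included Epcam, at 1835 CPM (UMIs scaled to a common total for each class and sample) in biliary epithelial-like cells and 35.8 CPM in the rest. Cdh5 was 589.6 and 6.66 CPM in endothelial-like cells and the rest, and Rgs5 1026 and 4.07 CPM in mural-like cells and the rest. Because these genes took part in the naming, their levels describe the classes and do not test the names.

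Over these cells the members differed widely in depth. Hes1 gave 189760 UMIs, Notch1 46592, Jag1 32081 and Notch2 30821, while Jag2 gave 5402, Notch4 5090, Dll4 4064, Notch3 943 and Hey1 349. Statements on Hey1 and Notch3 therefore rest on few molecules. Levels are given below as CPM within a cell class of a sample, over samples with at least 20 cells of the class, and are compared between classes and conditions but not between genes. Orders of classes cover the 11 classes with at least 6 such samples, and rarer classes are named as such. Because free RNA reaches every droplet, the level of each gene in near-empty barcodes, of 100 UMIs or fewer, is given. It describes the free RNA itself and not what free RNA adds to a cell. The estimated share of free RNA had medians over libraries of 1.05% in fibroblast-like and 1.60% in biliary epithelial-like cells. It was 1.94% in T and NK-like and 2.29% in monocyte and macrophage-like cells, with highest values of 3.77%, 7.29%, 4.46% and 10.1%. A level under that of near-empty barcodes is therefore not by itself background.

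**Figure D1:**
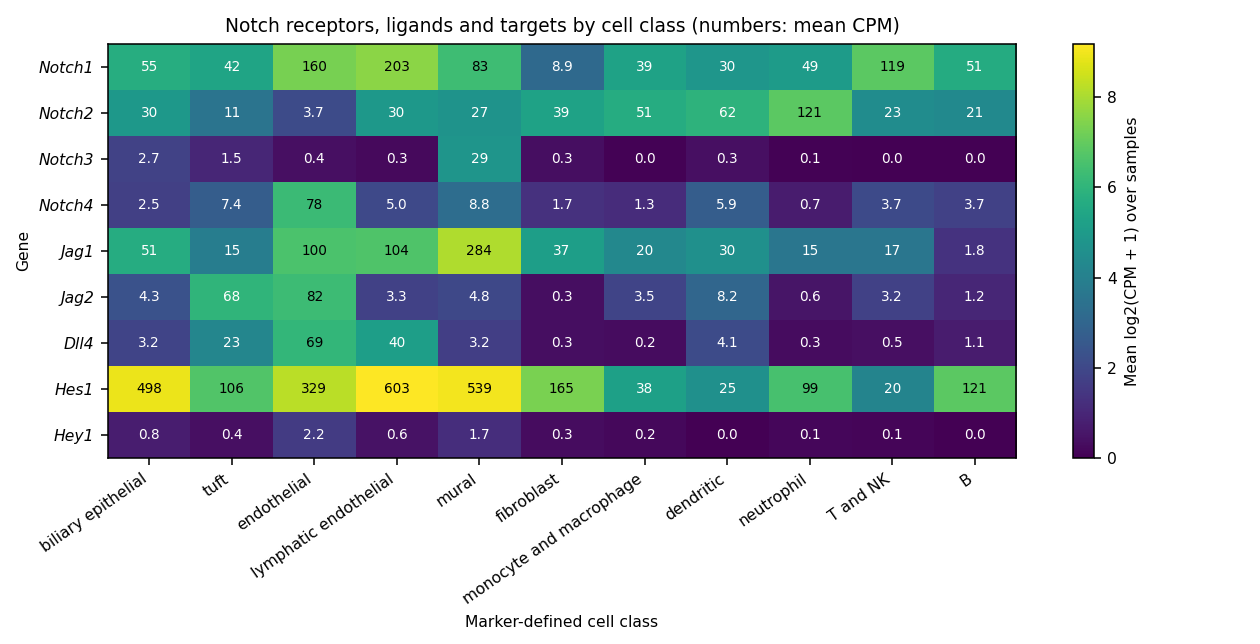
Mean level of each of the 9 genes (rows) in each cell class with at least 6 samples (columns). Colour gives the mean log2(CPM + 1) over samples and the numbers the mean CPM. Notch3 stands out in mural-like cells at 29.5 CPM, Notch4 and Dll4 in endothelial-like cells at 78.1 and 68.9 CPM, and Notch2 in neutrophil-like cells at 121 CPM.

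Each receptor had its highest mean level in a different one of the 11 ordered classes. Notch1, which is needed for artery and T cell development, was highest in lymphatic endothelial-like cells at 203 ± 74.7 CPM (SD, n = 8), followed by endothelial-like cells at 160.2 ± 35.02 CPM (SD, n = 9) and T and NK-like cells at 119 ± 27.8 CPM (SD, n = 9). Glial-like cells, with 20 or more cells in 5 samples only and so outside the order, had 128 ± 34.8 CPM (SD, n = 5). In endothelial-like cells Notch1 had a lowest value of 89.03, a median of 153 and a highest value of 203 CPM over 9 samples. The first pair in this order overlapped, whereas endothelial-like exceeded T and NK-like cells in 6 of 9 samples. Mural-like cells followed at 83.2 ± 28.7 CPM (SD, n = 9) and biliary epithelial-like cells at 54.6 ± 18.1 CPM (SD, n = 9). Fibroblast-like cells, at 8.94 ± 4.96 CPM (SD, n = 9), lay under the 31.02 CPM of Notch1 in near-empty barcodes.

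Notch2, the receptor tied to duct formation, was highest in myeloid cells. It averaged 121 ± 34.5 CPM (SD, n = 8) in neutrophil-like cells, 62.1 ± 17.2 CPM (SD, n = 8) in dendritic-like cells and 50.9 ± 8.01 CPM (SD, n = 9) in monocyte and macrophage-like cells. Neutrophil-like cells were above dendritic-like cells in 7 of 7 samples that held both. Biliary epithelial-like cells carried Notch2 at 30.4 ± 8.75 CPM (SD, n = 9), with a lowest value of 16.3, a median of 33.7 and a highest value of 42.8 CPM over 9 samples, against 26.7 CPM in near-empty barcodes. Endothelial-like cells had the lowest Notch2 mean of the 11 ordered classes, 3.74 ± 2.32 CPM (SD, n = 9).

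Notch3, the receptor of vascular smooth muscle cells and pericytes, had its highest mean in mural-like cells. In them it reached 38.8, 29.6 and 53.1 CPM in the sham samples, 13.1, 40.1 and 24.4 CPM in the transplant samples of days 1, 3 and 7, and 24.5, 13.9 and 27.5 CPM in the raised-flow samples of the same days, a mean of 29.5 ± 12.9 CPM (SD, n = 9). All of these values were above the 0.849 CPM of near-empty barcodes and above the biliary epithelial-like level of the same sample. The next class, biliary epithelial-like cells, averaged 2.74 ± 1.27 CPM (SD, n = 9), and the paired difference was 2.98 ± 0.525 on the log2(CPM + 1) scale (SD, 9 of 9 samples higher). When each cell was thinned to 1000 UMIs, 3.73% of mural-like cells held a Notch3 UMI (unthinned 17.8%), against 0.0415% of endothelial-like and 0.00499% of T and NK-like cells, at median depths of 2552 to 9677 UMIs a cell in mural-like samples and 2019 to 5382 in T and NK-like samples.

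Notch4, a receptor known from vascular endothelium, averaged 78.1 ± 20.6 CPM (SD, n = 9) in endothelial-like cells, with a lowest value of 42.8, a median of 86.1 and a highest value of 108 CPM over 9 samples. Mural-like cells had 8.83 ± 2.11 CPM (SD, n = 9) and tuft-like cells 7.40 ± 5.21 CPM (SD, n = 9), near the 4.65 CPM of near-empty barcodes. The endothelial-like level of Notch4 was above the mural-like level in 9 of 9 samples, by 2.99 ± 0.632 on the log2(CPM + 1) scale (SD). After thinning, 8.75% of endothelial-like and 0.258% of biliary epithelial-like cells held a Notch4 UMI (unthinned 26.3% and 2.30%). Lymphatic endothelial-like cells had a mean of 5.01 ± 7.00 CPM (SD, n = 8).

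Of the ligands, Jag1, whose loss of function causes bile duct paucity in people, had its highest mean in mural-like cells. Its level there was 284 ± 67.2 CPM (SD, n = 9), with a lowest value of 174, a median of 298 and a highest value of 373 CPM over 9 samples, against 18.8 CPM in near-empty barcodes. Lymphatic endothelial-like and endothelial-like cells followed at 104 ± 34.5 CPM (SD, n = 8) and 99.8 ± 29.9 CPM (SD, n = 9), and the biliary epithelial-like cells at 51.1 ± 9.09 CPM (SD, n = 9). Outside the order, the 5 glial-like samples had 164 ± 108 CPM (SD, n = 5), between the mural-like and lymphatic endothelial-like means. Jag1 was higher in mural-like than in lymphatic endothelial-like cells in 8 of 8 samples, and higher in endothelial-like than in biliary epithelial-like cells in 9 of 9. After thinning, 25.1% of mural-like and 4.77% of biliary epithelial-like cells held a Jag1 UMI (unthinned 68.1% and 30.7%).

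Jag2, a second Jagged ligand, had high means in endothelial-like cells, 82.4 ± 35.1 CPM (SD, n = 9), and in tuft-like cells, 68.00 ± 25.02 CPM (SD, n = 9). Tuft cells are rare chemosensory epithelial cells, here recognised by Trpm5 and Avil. In tuft-like cells Jag2 had a lowest value of 26.9, a median of 69.8 and a highest value of 105 CPM over 9 samples, and it was above dendritic-like cells, the next class in the order, in 8 of 8 samples. Goblet-like cells, with 20 or more cells in 3 samples only, had 25.1 ± 38.05 CPM (SD, n = 3). Each of the other ordered classes averaged between 0.273 and 8.19 CPM, against 5.94 CPM in near-empty barcodes. After thinning, 8.76% of endothelial-like and 6.54% of tuft-like cells held a Jag2 UMI, against 0.482% of biliary epithelial-like cells (unthinned 25.8%, 12.9% and 4.72%).

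Dll4, the Delta-type ligand of arteries and sprouting vessels, averaged 68.9 ± 14.5 CPM (SD, n = 9) in endothelial-like cells, with a lowest value of 45.00, a median of 68.7 and a highest value of 95.2 CPM over 9 samples. Lymphatic endothelial-like cells had 40.1 ± 25.1 CPM (SD, n = 8) and tuft-like cells 23.1 ± 18.4 CPM (SD, n = 9), against 4.01 CPM in near-empty barcodes. Endothelial-like cells were above lymphatic endothelial-like cells in 7 of 8 samples, and tuft-like above dendritic-like cells in 7 of 8. The 3 goblet-like samples had 73.7 ± 39.96 CPM (SD, n = 3). Besides both endothelial-like classes, tuft-like and goblet-like cells were therefore the classes with the higher Dll4 means.

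The targets were covered at very different depths. Hes1, a transcriptional repressor induced by Notch and by other signals, averaged 603 ± 188 CPM (SD, n = 8) in lymphatic endothelial-like cells, 539 ± 165 CPM (SD, n = 9) in mural-like cells, 498 ± 98.6 CPM (SD, n = 9) in biliary epithelial-like cells and 329 ± 166 CPM (SD, n = 9) in endothelial-like cells. Its endothelial-like values were 749.8, 290.1 and 306 CPM in the sham samples, 338, 167 and 306 CPM in the transplant samples and 258, 233 and 316 CPM in the raised-flow samples, so sham 1 stood above the other 8. Near-empty barcodes held 178 CPM of Hes1, above the mean of fibroblast-like cells, 165 ± 48.6 CPM (SD, n = 9). Hey1, a Hey-family repressor, was near its detection limit: its mean was 2.18 CPM in endothelial-like, 1.67 CPM in mural-like and 0.805 CPM in biliary epithelial-like cells, and at most 0.58 CPM in each of the others, against 0.321 CPM in near-empty barcodes.

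Whether neighbours in these orders differed beyond their spread was tested with 2-sided exact sign-flip permutation tests on paired samples, over 90 neighbouring pairs of classes. With 9 samples the smallest p is 0.0039, and the lowest adjusted p over the 90 pairs was 0.0703, so 0 pairs passed the threshold of 0.05 and 21 had an unadjusted p under it. Several pairs must reach the smallest p together before any adjusted value can pass. The absence of a pass therefore says little about whether neighbours differ. The unadjusted set included Notch3 in mural-like above biliary epithelial-like cells, Notch4 in endothelial-like above mural-like cells, Jag1 in endothelial-like above biliary epithelial-like cells and Hes1 in endothelial-like above fibroblast-like cells, each at p = 0.0039 by the exact permutation test and adjusted p = 0.0703. For Jag2, endothelial-like and tuft-like cells, which led its order, were not among the 21 pairs.

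By the share of molecules rather than the level, endothelial-like cells supplied a mean of 57.0% of the Dll4 UMIs of a sample, 53.6% of the Notch4 UMIs and 47.8% of the Jag2 UMIs. Biliary epithelial-like cells supplied 40.6% of the Hes1 UMIs and 39.1% of the Notch3 UMIs, and mural-like cells, far fewer in number, 31.7% of the Notch3 UMIs. These shares move with the cells recovered from each sample, so they are not used for comparisons between conditions.

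**Figure D2:**
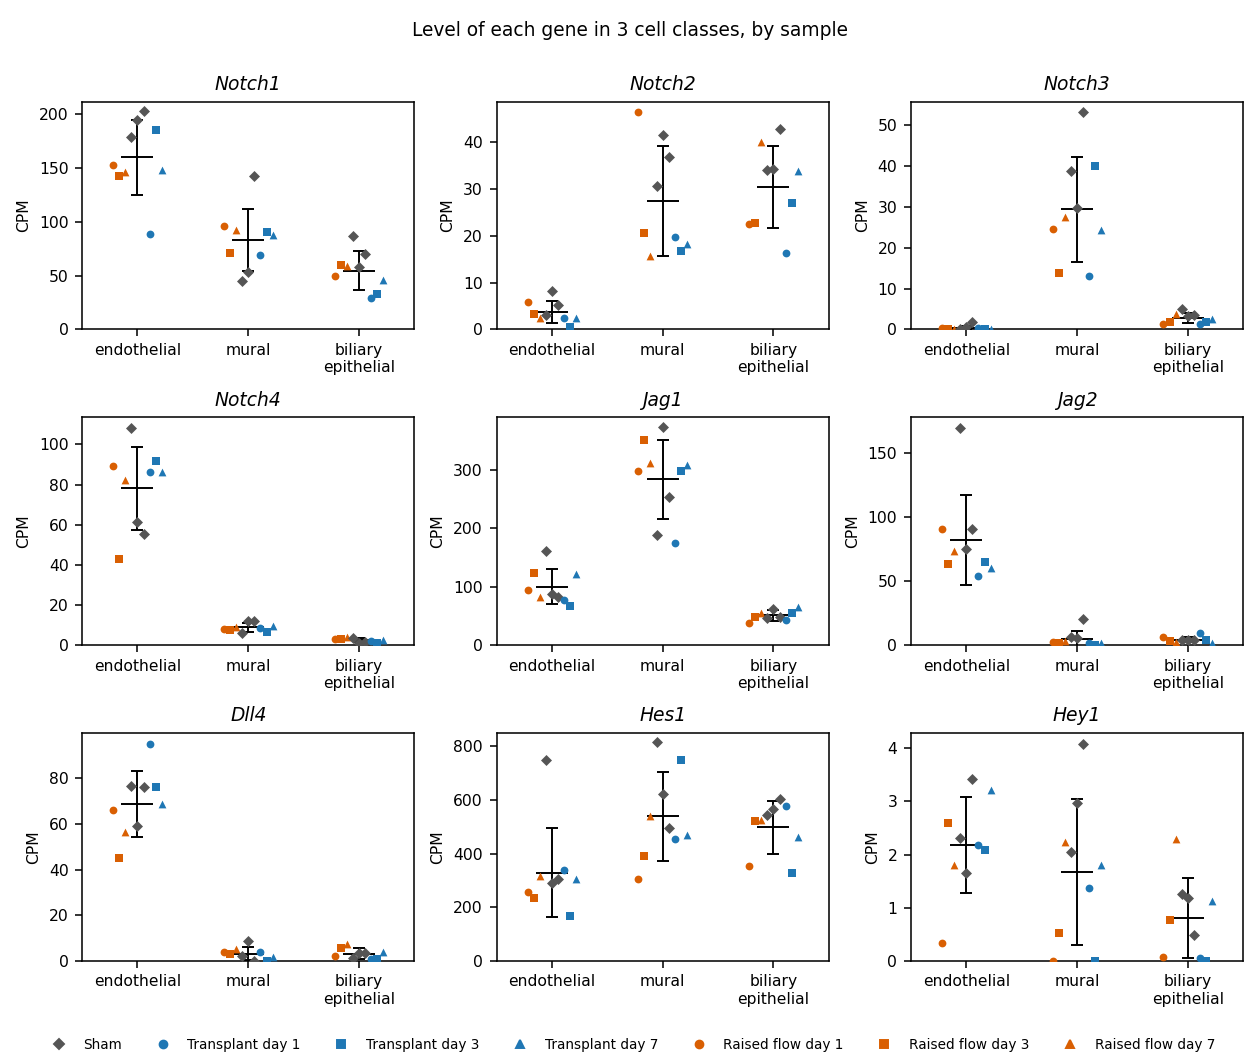
Level of each gene in biliary epithelial-like, endothelial-like and mural-like cells in CPM. Each point is 1 of the 9 samples, and the bars give the mean and SD. Notch4, Dll4 and Jag2 sit highest in endothelial-like cells, and Notch3 and Jag1 in mural-like cells.

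The epithelial, endothelial and mural compartments were then compared in 1 edgeR quasi-likelihood fit with the sample as a term, over the 9 samples, in which 8 members passed the filter on low counts and Hey1 did not. Between endothelial-like and biliary epithelial-like cells all 8 tested members differed, where 64.5% of all 10606 genes tested did. Higher in endothelial-like cells were the receptors Notch4 (log2 fold change 4.99, SE 0.186, adjusted p = 5.41e-16) and Notch1 (log2 fold change 1.61, SE 0.149, adjusted p = 2.71e-09). So were the ligands Dll4 (log2 fold change 4.50, SE 0.323, adjusted p = 3.58e-11), Jag2 (log2 fold change 4.22, SE 0.268, adjusted p = 4.03e-12) and Jag1 (log2 fold change 0.97, SE 0.145, adjusted p = 4.08e-06). Lower in endothelial-like cells were Notch2 (log2 fold change -3.06, SE 0.237, adjusted p = 1.27e-10), Notch3 (log2 fold change -3.08, SE 0.38, adjusted p = 2.50e-07) and the target Hes1 (log2 fold change -0.66, SE 0.162, adjusted p = 0.00117). The median over the 8 members was 1.29 on the log2 scale.

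Mural-like cells stood apart from biliary epithelial-like cells in 4 of the 8 members, all higher, against 61.7% of all genes in either direction. These were Notch3 (log2 fold change 3.39, SE 0.226, adjusted p = 1.29e-11), Jag1 (log2 fold change 2.45, SE 0.151, adjusted p = 3.28e-12), Notch4 (log2 fold change 1.74, SE 0.231, adjusted p = 8.82e-07) and Notch1 (log2 fold change 0.66, SE 0.156, adjusted p = 8.70e-04). Notch2 (-0.21 on the log2 scale), Jag2 (-0.64), Dll4 (-0.03) and Hes1 (0.07) did not pass, and the signs for Dll4 and Hes1 turned under other settings. Between endothelial-like and mural-like cells all 8 differed, against 49.8% of all genes. Jag2 (log2 fold change 4.86, SE 0.375, adjusted p = 3.01e-10), Dll4 (log2 fold change 4.53, SE 0.427, adjusted p = 7.82e-09), Notch4 (log2 fold change 3.25, SE 0.209, adjusted p = 1.56e-11) and Notch1 (log2 fold change 0.95, SE 0.156, adjusted p = 2.42e-05) were higher in endothelial-like cells. Notch3 (log2 fold change -6.47, SE 0.341, adjusted p = 5.51e-13), Notch2 (log2 fold change -2.85, SE 0.261, adjusted p = 4.97e-09), Jag1 (log2 fold change -1.48, SE 0.148, adjusted p = 2.08e-08) and Hes1 (log2 fold change -0.73, SE 0.164, adjusted p = 7.63e-04) were higher in mural-like cells. Since large shares of all genes tested differed between these compartments, the counts say little about the members, and the sizes of the differences are the description.

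Of 30 other pathway genes in the feature tables, 24 were tested in the same fit. Between endothelial-like and biliary epithelial-like cells 15 were higher and 5 lower, against 64.5% of all genes in either direction. The largest were Mfng, a glycosyltransferase that modifies Notch receptors (log2 fold change 6.48, adjusted p = 2.40e-15), the target Hey2 (log2 fold change 3.35, adjusted p = 1.95e-07) and the coactivator Maml2 (log2 fold change 2.40, adjusted p = 2.94e-09), against lower Heyl (log2 fold change -2.31, adjusted p = 1.54e-05) and Dtx2 (-0.998). Between mural-like and biliary epithelial-like cells 9 were higher and 9 lower, against 61.7% of all genes. The targets Hey2 (log2 fold change 8.51, adjusted p = 6.72e-16) and Heyl (log2 fold change 5.07, adjusted p = 1.31e-14) and the Notch inhibitor homolog Numbl (log2 fold change 5.01, adjusted p = 1.93e-11) had the largest positive values, and Pofut1, Aph1a and Numb had -1.43, -1.17 and -1.10. Between endothelial-like and mural-like cells 12 were higher and 5 lower, against 49.8% of all genes, with Mfng (log2 fold change 6.33, adjusted p = 3.75e-12), Psen2 (2.23) and Adam10 (2.10) at the top and Heyl (log2 fold change -7.37, adjusted p = 1.99e-14), Numbl (-5.47) and Hey2 (-5.16) at the bottom.

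In the mural-like cells, which held Notch3 and the most Jag1, Heyl averaged 81.5 ± 32.4 CPM and Hey2 67.8 ± 21.4 CPM (SD, n = 9), while their Hey1 mean was 1.67 CPM. The feedback gene Nrarp, which limits Notch signalling, averaged 267 ± 97.7 CPM in the same cells. In endothelial-like cells Mfng averaged 80.2 ± 16.99 CPM (SD, n = 9). Tuft-like cells, with Jag2 and Dll4, carried Lfng at 60.5 ± 30.6 CPM and Neurl1, a ubiquitin ligase for Notch ligands, at 111 ± 29.7 CPM (SD, n = 9).

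Within the endothelial-like class a finer clustering separated groups of cells with different ligand levels, which are given as a description without a test. The cluster led by Igfbp3 and Sox17, genes known from arterial endothelium, had 2327 cells in 9 samples, and it held Dll4 at 116 ± 21.5, Jag1 at 261 ± 159, Jag2 at 159.8 ± 97.5 and Notch4 at 120.5 ± 21.5 CPM (SD). The cluster led by Plvap and Emcn, with 2251 cells, held Dll4 at 64.9 ± 20.6, Jag1 at 99.9 ± 66.8, Jag2 at 92.6 ± 39.2 and Notch4 at 84.3 ± 34.7 CPM. The cluster led by Cxcl9 and Cxcl11, with 2063 cells and at least 20 of them in 6 samples, held 36.01 ± 18.5, 47.8 ± 24.5, 39.96 ± 14.5 and 43.4 ± 25.7 CPM of the same genes. Each of the 4 was higher in the Igfbp3 cluster than in the Plvap cluster in 8 of 9 samples, and lower in the Cxcl9 cluster than in either of the others in 6 of 6. Notch1 had no such order, at 166 ± 52.03, 184 ± 50.1 and 129 ± 22.9 CPM. The median cell had 2116, 3761 and 5569 UMIs in the Igfbp3, Plvap and Cxcl9 clusters, a depth that rose as the 4 levels fell. The part of depth in these levels was not tested.

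**Figure D3:**
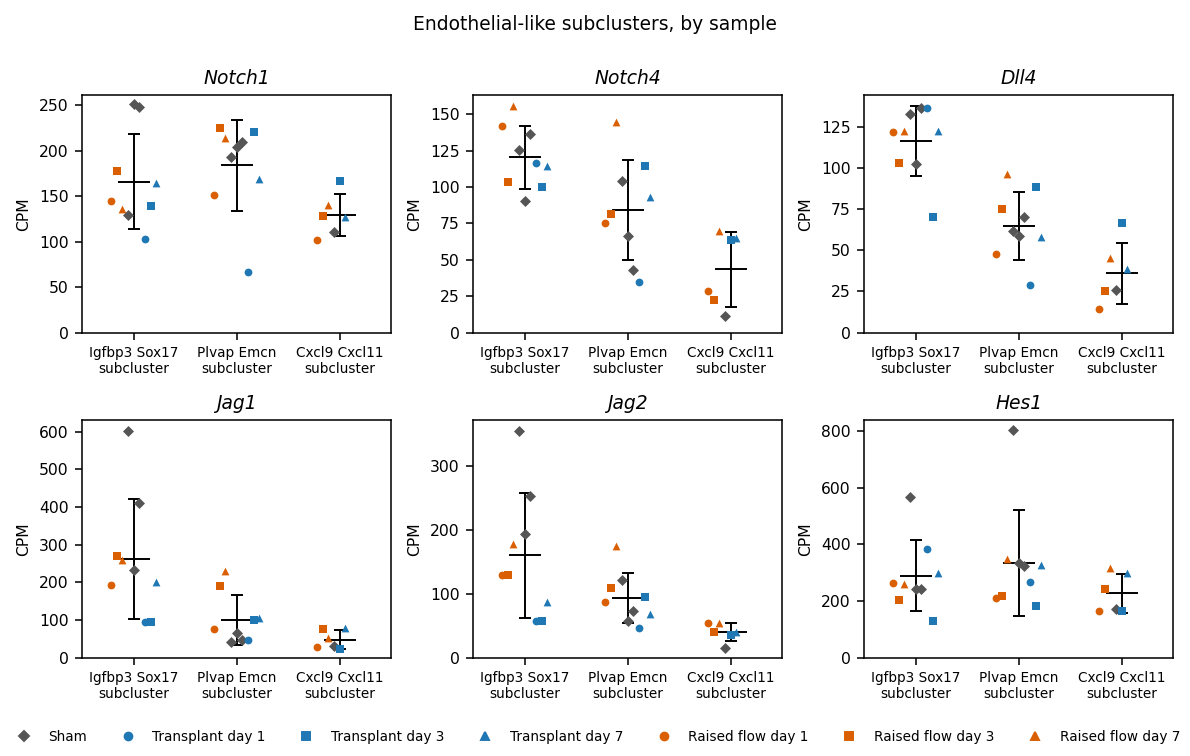
Levels of the Notch genes in 3 endothelial-like clusters of the finer clustering, in CPM, with 1 point for each sample that holds at least 20 cells of the cluster and bars for the mean and SD. Dll4, Jag1, Jag2 and Notch4 step down from the Igfbp3 and Sox17 cluster to the Plvap and Emcn cluster and the Cxcl9 and Cxcl11 cluster. The median UMIs of a cell rise in the same order.

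The mural-like class divided into an Rgs5 and Cox4i2 cluster of 1202 cells and a Myh11 and Actg2 cluster of 517 cells. Notch3 averaged 30.9 ± 26.2 and 26.96 ± 11.3 CPM in them (SD), values that overlapped. Notch4 was 14.2 ± 8.37 against 2.92 ± 3.00 CPM, higher in the Rgs5 cluster in 6 of 6 samples. Jag1 was 239 ± 44.6 against 354 ± 148 CPM, higher in the Myh11 cluster in 5 of 6.

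Across the 11 ordered classes, the genes whose mean log2(CPM + 1) was most like each member's, of 10726 compared, are given as a description. The classes share libraries and depth. They were for Notch1 Clk1 (r = 0.86), RGD1308134 (r = 0.85), Gimap5 (r = 0.81), for Notch2 Snx18 (r = 0.86), Ndufaf7 (r = 0.83), Adam30 (r = 0.81), for Notch3 Hrc (r = 0.97), Abcc8 (r = 0.97), Pde5a (r = 0.96) and for Notch4 Tcf15 (r = 0.95), Flt1 (r = 0.94), Lipe (r = 0.91). Flt1, near Notch4, encodes a VEGF receptor. For the ligands they were Rbpms (r = 0.95), Psmd8 (r = 0.94), RGD1310352 (r = 0.93) with Jag1, Myo18a (r = 0.91), Chit1 (r = 0.89), Crk (r = 0.88) with Jag2 and Podxl (r = 0.96), Pcnx1 (r = 0.95), Shank3 (r = 0.95) with Dll4. For the targets they were Ppp2cb (r = 0.93), Cav2 (r = 0.90), Synm (r = 0.89) with Hes1 and Npw (r = 0.94), Gbp1 (r = 0.94), Depp1 (r = 0.93) with Hey1.

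Transplantation was compared with sham in each of 10 cell classes, with 3 samples a group and the 3 transplant days pooled. Of the 90 combinations of member and class, 61 passed the filter and were tested in each of the comparisons between groups. Against sham, 2 member levels changed in the transplant arm, both down, and 13 had an unadjusted p under 0.05, where 2.07% of all gene and class combinations tested passed. Notch1 in biliary epithelial-like cells was 87.3, 58.05 and 70.5 CPM in the sham samples and 28.99, 32.8 and 45.9 CPM on days 1, 3 and 7 of the transplant arm. The groups did not overlap, and Notch1 fell (log2 fold change -0.78, SE 0.188, adjusted p = 0.0497, edgeR), where 4.45% of all genes in these cells passed in either direction. The raised-flow samples had 49.6, 59.7 and 58.7 CPM of Notch1 in biliary epithelial-like cells, which reached into the sham range. In the vessel-associated and fibroblast-like classes no member passed: 0 of 7 in endothelial-like cells, 0 of 6 in mural-like cells, 0 of 5 in lymphatic endothelial-like cells and 0 of 5 in fibroblast-like cells, against 1.68%, 2.72%, 0.0249% and 1.07% of all genes. Nor did one in dendritic-like (0 of 7), T and NK-like (0 of 6), tuft-like (0 of 6) or neutrophil-like cells (0 of 4), against 0.118%, 0.156%, 0.0125% and 0%.

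This Notch1 call was not stable: it held in 6 of 17 alternatives, with adjusted p from 0.01 to 0.168 (edgeR, DESeq2 in 1 of them). The biliary clusters that held most cells differed between the groups, a Scgb1c1 cluster in sham 2 and sham 3 and a Reg3b cluster on day 1. Within the cluster led by Clca5, Notch1 was 85.2, 64.03 and 91.8 CPM in the sham and 57.8, 41.6 and 46.9 CPM in the transplant samples. Within the Reg3b cluster it was 70.5 and 90.9 CPM in 2 sham samples and 28.3, 20.04 and 34.3 CPM in the transplant samples. Neither cluster overlapped between sham and transplant for Notch1. Of 18 marker lists of other cell types, 5 were higher in all sham than in all transplant samples of these biliary cells. They included lymphatic endothelial markers, 6 of 7 higher, with summed levels of 36.8 to 87.2 against 4.59 to 12.7 CPM, and tuft markers, 6 of 8 higher, with 148 to 162 against 51.6 to 102 CPM, and no marker of either list was at 0. The part of the clusters and of these lists in the result was not tested. Epithelial cells that stayed unnamed, described under other observations, are not in these values.

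Jag2 in monocyte and macrophage-like cells was the other call. It was 6.36, 6.16 and 10.1 CPM in the sham samples, 1.38, 1.48 and 1.84 CPM in the transplant samples and 2.14, 0.523 and 1.91 CPM in the raised-flow samples. The call held in 11 of 17 alternatives for transplant and in 8 of 17 for raised flow. Both transplanted groups lay below all sham samples (log2 fold change -1.99, SE 0.459, adjusted p = 0.0395 for transplant, and log2 fold change -2.12, SE 0.455, adjusted p = 0.0449 for raised flow, edgeR), where 7.27% and 2.57% of all genes changed. The comparisons share their sham samples. These levels rest on 7, 35 and 38 UMIs in the sham samples and 13 to 81 UMIs in the others. The median cell was shallower in every sham sample than in every graft sample, with 1276, 3661 and 3124 UMIs in the sham, 5229, 6982 and 4276 in the transplant and 6916, 4618 and 4349 in the raised-flow samples. The groups also differed in their clusters. A cluster led by Cideb, Mmp12 and F13a1 held 1133 of 1366 cells of sham 2 and 947 of 1083 of sham 3, and at most 52 cells of any other sample. In it Jag2 was 6.06 and 11.01 CPM in these sham samples, and in the graft samples with at least 20 cells it rested on 0, 1 and 4 UMIs, too few to show a direction. Within the cluster led by C1qa and C1qc, the only one with at least 20 cells in all 9 samples besides a Cxcl13 and Fcgr3a cluster of 0 to 2 UMIs a sample, Jag2 was 8.52, 6.28 and 0 CPM in the sham, 6.45, 1.61 and 2.55 CPM in the transplant and 4.52, 0.679 and 2.16 CPM in the raised-flow samples, which overlapped, on 3, 3 and 0 UMIs in the sham samples. The part of depth and clusters in the result was not tested. Near-empty barcodes held 10.9, 6.57 and 6.79 CPM of Jag2 in the sham, 7.99, 3.09 and 3.32 CPM in the transplant and 4.10, 5.16 and 5.58 CPM in the raised-flow samples, so the level in these cells exceeded that of its own near-empty barcodes in sham 3 and in no other sample. Biliary epithelial markers, 10 of 10 higher in the sham samples and none at 0, summed to 178 to 261 CPM there, 49.1 to 167 CPM in the transplant and 63.2 to 89.5 CPM in the raised-flow samples. Goblet markers, 5 of 6 higher in the sham samples and none at 0, summed to 44.7 to 118 CPM in the sham, 8.72 to 43.4 CPM in the transplant and 7.72 to 41.7 CPM in the raised-flow samples. In all, 5 of 18 lists were higher in each sham than in each transplant sample, and 4 of 18 than in each raised-flow sample. The part of these lists in the result was not tested. With free RNA subtracted, the log2 fold change was -2.01 (adjusted p = 0.0499) for transplant and -2.16 (adjusted p = 0.0533) for raised flow (edgeR), so the sizes were kept and the raised-flow call was lost.

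The raised-flow arm against sham gave this Jag2 value as its 1 call, with 9 of 61 at an unadjusted p under 0.05, where 0.373% of all combinations passed. In biliary epithelial-like, fibroblast-like, lymphatic endothelial-like and T and NK-like cells 0 of 9, 0 of 5, 0 of 5 and 0 of 6 members passed, against 0.0152%, 0.0597%, 0.0124% and 0.447% of all genes, and in the other 5 classes no gene of any kind did. Raised flow against transplant, the comparison of the flow treatment itself, gave 0 calls by edgeR and by DESeq2, and 3 at an unadjusted edgeR p under 0.05, where 0.00208% of all combinations passed. Its calls over all genes were 1 in mural-like cells (0.0121%) and 1 in tuft-like cells (0.0125%), neither of them a member. The 3 member values with an unadjusted p under 0.05 were Dll4 in endothelial-like cells and Dll4 and Notch1 in biliary epithelial-like cells. Dll4 in endothelial-like cells was 95.2, 76.4 and 68.7 CPM in the transplant and 66.2, 45.00 and 56.5 CPM in the raised-flow samples, groups that did not overlap (log2 fold change -0.51, SE 0.212, adjusted p = 0.73, edgeR). Within the Igfbp3 cluster, which held the most Dll4, it was 136, 69.9 and 122 CPM in the transplant and 122, 103 and 122 CPM in the raised-flow samples, which overlapped. Dll4 in biliary epithelial-like cells was 0.871, 0.669 and 3.76 CPM and 2.16, 5.67 and 7.47 CPM (log2 fold change 1.43, SE 0.629, adjusted p = 0.986, edgeR). Notch1 in biliary epithelial-like cells was higher in each raised-flow than in each transplant sample, as its values above show (log2 fold change 0.62, SE 0.186, adjusted p = 0.939, edgeR). No member level therefore passed the threshold between the arms, with 3 samples a group.

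Some vessel-associated levels lay wholly above or below the sham samples in at least 1 graft arm but missed the threshold. They were picked for this order, and the share of all genes with such an order is not given. With 3 samples a group, such an order is not rare without any difference. The values are therefore a description, and no pattern of vessels is read from them. Jag2 in endothelial-like cells was 169.6, 75.1 and 90.6 CPM in the sham, 53.7, 64.9 and 60.5 CPM in the transplant and 90.4, 63.2 and 73.2 CPM in the raised-flow samples (log2 fold change -0.82, SE 0.252, adjusted p = 0.127 for transplant against sham, edgeR). All transplant values lay below the sham values, and the raised-flow day 1 value lay among them. The groups differed in their finer clusters: the Cxcl9 cluster, which was low in Jag2, had 20 or more cells in sham 2 alone among the sham samples (27 of 530 endothelial-like cells), and 843 of 1182 on raised-flow day 7 and 383 of 1056 on transplant day 7. Within the Igfbp3 cluster Jag2 was 354, 193 and 253 CPM in the sham, 57.7, 56.6 and 87.7 CPM in the transplant and 129, 129.9 and 177 CPM in the raised-flow samples, groups that did not overlap. Within the Plvap cluster it was 121, 57.5 and 73.1 CPM, 46.2, 95.4 and 68.6 CPM and 87.6, 109 and 175 CPM, which overlapped. Notch2 in endothelial-like cells was 3.07, 8.23 and 5.13 CPM in the sham and 2.48, 0.524 and 2.37 CPM in the transplant samples (log2 fold change -1.43, SE 0.6, adjusted p = 0.224, edgeR). Notch2 in mural-like cells was 30.7, 41.5 and 36.8 CPM in the sham and 19.6, 16.7 and 18.2 CPM in the transplant samples (log2 fold change -0.97, SE 0.424, adjusted p = 0.26, edgeR). Both sets of Notch2 values were lower in every transplant sample than in every sham sample. This order was also seen in biliary epithelial-like, lymphatic endothelial-like, T and NK-like, dendritic-like and neutrophil-like cells. The classes come from the same samples, so they do not repeat the order independently. In biliary epithelial-like cells the highest transplant value was 33.70 CPM and the lowest sham value 33.92 CPM. It did not hold in fibroblast-like, monocyte and macrophage-like or tuft-like cells. The raised-flow values of Notch2 overlapped the sham values, reaching 5.96 CPM in endothelial-like and 46.3 CPM in mural-like cells. The endothelial-like values rest on 121 Notch2 UMIs over 9 samples. Dll4 in lymphatic endothelial-like cells was 42.96, 81.1 and 75.7 CPM in the sham samples, 32.9 and 24.8 CPM on days 1 and 7 of the transplant arm and 26.4, 12.4 and 25.1 CPM in the raised-flow samples (log2 fold change -1.05, SE 0.428, adjusted p = 0.237 and log2 fold change -1.58, SE 0.377, adjusted p = 0.198, edgeR). The transplant day 3 sample held under 20 lymphatic endothelial-like cells and was left out. Jag1 in the same cells was ordered the other way, at 58.1, 71.3 and 85.7 CPM, 87.6 and 124 CPM and 142, 108 and 156 CPM (log2 fold change 0.75, SE 0.286, adjusted p = 0.214 and log2 fold change 0.98, SE 0.26, adjusted p = 0.211, edgeR). Notch3 in mural-like cells, listed above by sample, was lower in each raised-flow sample than in each sham sample (log2 fold change -0.88, SE 0.409, adjusted p = 0.36, edgeR), while the transplant day 3 value lay among the sham values.

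**Figure D4:**
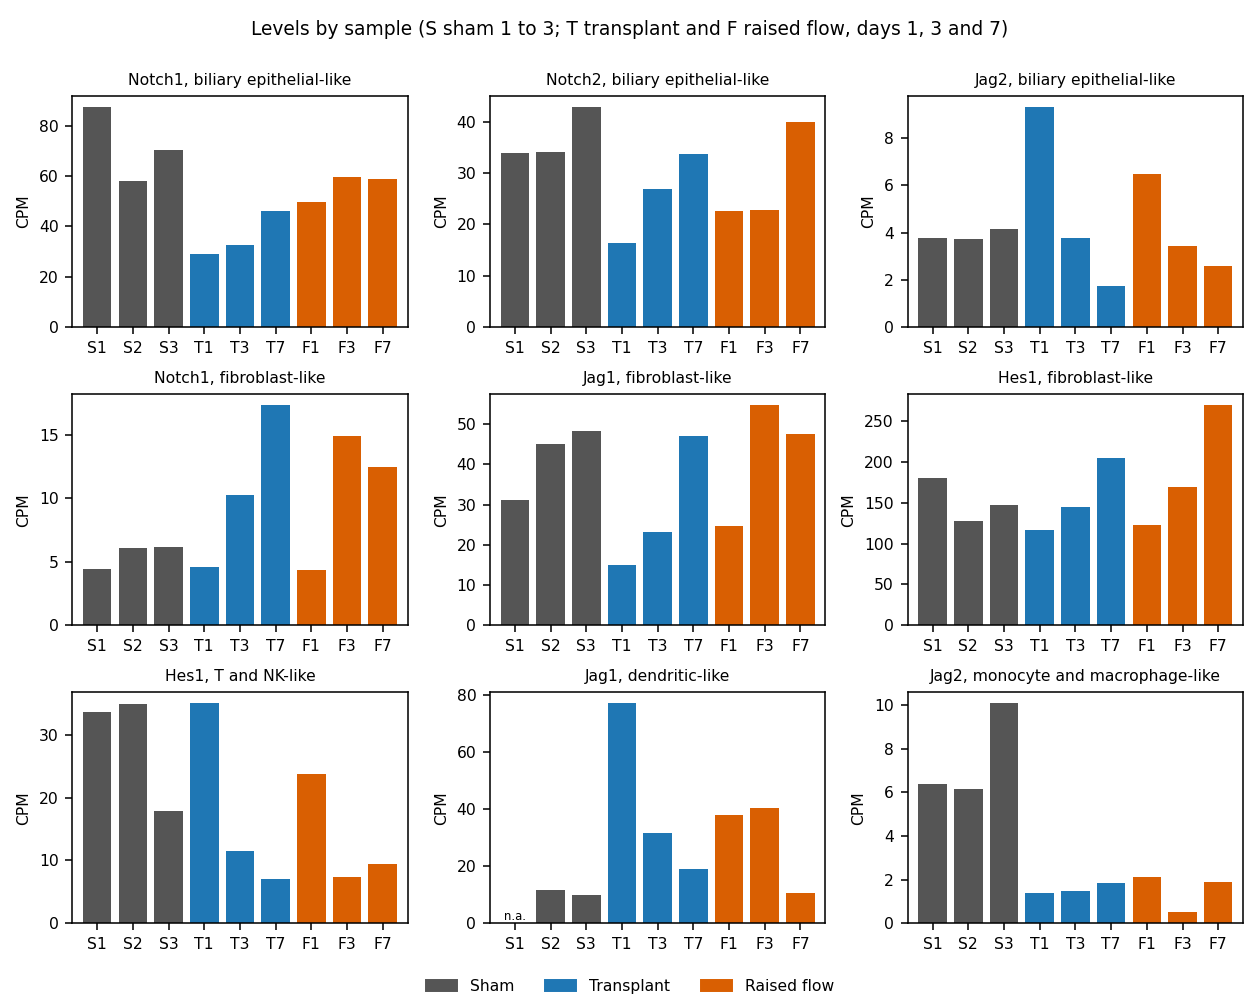
Levels (CPM) of selected members by sample and group in the class named on each panel. Each bar is 1 sample, from left the 3 sham samples, then days 1, 3 and 7 of the transplant and of the raised-flow arm. Notch1 of biliary epithelial-like cells and Jag2 of monocyte and macrophage-like cells are lower in every transplant sample than in every sham sample, and the day 1 bars of Jag2 in biliary epithelial-like cells stand above the others. Sham 1 held under 20 dendritic-like cells (n.a.).

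Among other pathway genes, 1 of 206 combinations changed between transplant and sham, the feedback gene Nrarp in biliary epithelial-like cells, which rose (log2 fold change 1.11, adjusted p = 0.018, edgeR), and 31 had an unadjusted p under 0.05. All genes passed in 2.07% of combinations, and in 4.45% of tests in biliary epithelial-like cells. Raised flow against sham gave 0 by edgeR, with 27 of 206 at an unadjusted p under 0.05, and raised flow against transplant gave 0, with 2 of 206. DESeq2 called 6, 2 and 0 in the same 3 comparisons.

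Between days 1 and 7 after transplantation members changed in biliary epithelial-like, fibroblast-like, lymphatic endothelial-like, T and NK-like and dendritic-like cells. This comparison used the 6 transplanted samples with the arm as a term, and set day 7 against day 1, with 1 sample of each arm on each day. Of 61 combinations tested, 10 changed, 6 up and 4 down, and 17 had an unadjusted p under 0.05, where 9.92% of all combinations passed. The members' share, 16.4%, is read against that background, which ranged from 1.2% to 29.4% over classes. Among the 10 are Hey1 in biliary epithelial-like and Notch4 in lymphatic endothelial-like cells. Both passed the filter on low counts only through samples outside their low day. The count moved with the samples: 5 combinations passed without the arm as a term, 0 without the transplant day 7 sample, 2 without the raised-flow day 7 sample, 3 without the raised-flow day 1 sample and 5 without the transplant day 1 sample. Without a day 1 or day 7 sample the lymphatic endothelial-like cells could not be fitted, so their calls also dropped out of these counts. Values below are given for the transplant sample first and the raised-flow sample second.

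In biliary epithelial-like cells, where 27.8% of all genes changed, the receptor Notch2 was 16.3 and 22.5 CPM on day 1 and 33.7 and 39.9 CPM on day 7 and rose (log2 fold change 0.63, SE 0.156, adjusted p = 0.0347, edgeR). The ligand Jag2 was 9.32 and 6.47 CPM on day 1 and 1.73 and 2.60 CPM on day 7 and fell (log2 fold change -2.15, SE 0.35, adjusted p = 0.013, edgeR). The target Hey1 was 0.058 and 0.0771 CPM on day 1 and 1.12 and 2.30 CPM on day 7, from 2 and 2 UMIs to 22 and 61 UMIs, and rose (log2 fold change 4.22, SE 0.805, adjusted p = 0.0188, edgeR). The day 1 samples did not meet the filter on low counts, which Hey1 passed through later samples. Its p-value is therefore not read as support for a rise, and the values are a description. Notch2, Jag2 and Hey1 did not overlap between days. For the sham samples, which this test did not use, Notch2 was 33.9, 34.2 and 42.8 CPM, Jag2 3.77, 3.72 and 4.16 CPM and Hey1 1.26, 1.18 and 0.492 CPM, so the day 1 grafts lay below the sham samples in Notch2 and Hey1 and above them in Jag2. Different clusters held most of these cells, the Reg3b cluster on day 1 and the Clca5 cluster on day 7, and the median cell had 14263 and 13225 UMIs on day 1 and 5057 and 3702 on day 7. The median mitochondrial share of these cells was 2.84 and 2.74% on day 1, 9.61 and 11.1% on day 7 and 4.79, 3.78 and 3.92% in the sham samples. Within the Clca5 cluster, Notch2 was 24.2 and 22.3 CPM on day 1 and 34.1 and 41.2 CPM on day 7, and Jag2 13.4 and 5.07 CPM on day 1 and 1.43 and 2.52 CPM on day 7. Within the Reg3b cluster, Notch2 was 16.03 and 21.2 CPM on day 1 and 26.7 and 25.4 CPM on day 7, and Jag2 9.29 and 6.63 CPM and 5.48 and 3.69 CPM. In both clusters Notch2 was higher and Jag2 lower on day 7, with a smaller Jag2 difference in the Reg3b cluster. Hey1 had 0 and 1 UMIs on day 1 and 22 and 60 UMIs on day 7 within the Clca5 cluster, and 2 and 1 UMIs on day 1 and 0 and 1 UMIs on day 7 within the Reg3b cluster, where these counts are too few to show a direction. Of 18 marker lists of other cell types, 2 were lower on day 7 as Jag2 was, endocrine markers (7 of 9, with Pcsk1n at 0) at 32.4 to 151 CPM on day 1 and 1.07 to 3.02 CPM on day 7, and vascular mural markers (6 of 10, none at 0) at 8.59 to 258 CPM and 5.17 to 6.55 CPM. Of the same 18 lists, 11 were higher on day 7 in these cells, among them 12 of 12 monocyte and macrophage markers, none at 0, at 189.6 to 257 CPM on day 1 and 509 to 559 CPM on day 7. The part of the clusters, of depth, of these lists and of the mitochondrial share in the results was not tested. Epithelial cells that stayed unnamed, described under other observations, are not in these values. Scaling by library size in place of TMM moved the median of all genes here by 0.30 on the log2 scale.

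In fibroblast-like cells, where 29.4% of all genes changed, 3 of 5 tested members rose. Notch1 was 4.58 and 4.31 CPM on day 1 and 17.3 and 12.5 CPM on day 7 (log2 fold change 1.58, SE 0.33, adjusted p = 0.0159, edgeR). Jag1 was 14.9 and 24.7 CPM on day 1 and 46.97 and 47.4 CPM on day 7 (log2 fold change 1.15, SE 0.323, adjusted p = 0.0387, edgeR). Hes1 was 116 and 123 CPM on day 1 and 204 and 269 CPM on day 7 (log2 fold change 0.78, SE 0.204, adjusted p = 0.0305, edgeR). A receptor, a ligand and a target thus had higher levels on day 7 in both arms. The sham samples had 4.44, 6.06 and 6.15 CPM of Notch1, 31.1, 45.1 and 48.4 CPM of Jag1 and 181, 128 and 148 CPM of Hes1, so Notch1 and Hes1 on day 7 lay above all 3 sham samples and Jag1 on day 1 lay below them. Different clusters held most of these cells. A cluster led by Ptx3 and Mgp had 335 of 351 cells of transplant day 1 and 5370 of 5551 of raised-flow day 1, and a cluster led by Cthrc1 and Mfap5 had 996 of 1010 and 885 of 923 on day 7. With at least 20 cells, both days could be set side by side within a cluster only in the raised-flow arm, which gives no test. Within the Cthrc1 cluster (178 cells on day 1), Notch1 was 6.20 CPM on day 1 and 12.8 CPM on day 7, Jag1 38.8 CPM on day 1 and 47.6 CPM on day 7 and Hes1 119 CPM on day 1 and 273 CPM on day 7. Within the Ptx3 cluster (28 cells on day 7), Notch1 was 4.24 CPM on day 1 and 0 CPM on day 7, Jag1 24.1 CPM on day 1 and 32.1 CPM on day 7 and Hes1 123 CPM on day 1 and 151 CPM on day 7. At 0 UMIs in 28 cells, the Notch1 value of day 7 is too shallow to show a direction. The part of the clusters in these 3 results was not tested. The Notch1 values lie under those of near-empty barcodes, which also were higher on day 7, at 18.7 and 19.1 CPM on day 1 and 52.97 and 53.3 CPM on day 7. With free RNA subtracted, the log2 fold change of Notch1 was 1.55 (adjusted p = 0.0194, edgeR), so the call was kept. Of 18 marker lists of other types, 10 were also higher on day 7. Smooth muscle markers, 7 of 9 and none at 0, summed to between 25.2 and 73.4 CPM on day 1 and between 188 and 189 CPM on day 7. T and NK markers, 10 of 11 with Cd5 at 0, summed to between 1.38 and 2.32 CPM on day 1 and between 59.96 and 88.4 CPM, and mesothelial markers, 4 of 6 with Upk3b at 0, summed to between 25.3 and 26.8 CPM on day 1 and between 254 and 269 CPM. Their part was not tested. The median fibroblast-like cell had 23983 and 12745 UMIs on day 1 and 9724 and 9218 on day 7, and median mitochondrial shares of 1.33 and 1.42% and 2.08 and 1.97%. Scaling by library size moved the median of all genes by 0.17.

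In lymphatic endothelial-like cells, fitted without the transplant day 3 sample and with 11.8% of all genes changed, Notch1 was 86.3 and 131 CPM on day 1 and 181 and 279.6 CPM on day 7 and rose (log2 fold change 0.91, SE 0.301, adjusted p = 0.0274, edgeR). The fit in these cells had barely more samples than coefficients, so the spread behind its p-values is poorly known. It could not be run with a further transplanted sample left out. The median cell had 8145 and 8252 UMIs on day 1 and 5272 and 6336 on day 7, and the median mitochondrial share was 1.90 and 1.60% on day 1 and 3.36 and 3.04% on day 7. Beside the Notch1 change, 9 of 18 marker lists of other types were higher on day 7, among them T and NK markers, 10 of 11 and none at 0, at 14.1 to 17.8 CPM on day 1 and 231 to 255 CPM on day 7. Their part was not tested. Notch4 was 21.9 and 2.40 CPM on day 1 and 1.55 and 0 CPM on day 7 and fell (log2 fold change -3.90, SE 1.29, adjusted p = 0.0273, edgeR), but it rests on 16 and 8 UMIs on day 1 and 2 and 0 UMIs on day 7, so its fitted fold depends on the prior count. Notch4 passed the filter on low counts only through transplant day 1, where it was highest. Its p-value is therefore not read as support for a fall, and the values are a description. Goblet markers, 4 of 6 with Retnlb at 0, summed to 33.3 to 46.6 CPM on day 1 and 5.38 to 6.96 CPM on day 7, and they were 1 of 2 lists of 18 that were lower on day 7. Their part was not tested.

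Hes1 in T and NK-like cells, where 1.43% of all genes changed, was 35.02 and 23.8 CPM on day 1 and 7.08 and 9.43 CPM on day 7 and fell (log2 fold change -1.74, SE 0.299, adjusted p = 0.0224, edgeR). All 4 values lie under those of near-empty barcodes, which were 354 and 146 CPM on day 1 and 99.6 and 125 CPM on day 7. With free RNA subtracted, the log2 fold change of Hes1 was -1.95 (adjusted p = 0.031, edgeR), so the call was kept. Of 18 marker lists of other types, 8 were lower on day 7. Among them were biliary epithelial markers, 10 of 10 and none at 0, which summed to between 117 and 233 CPM on day 1 and between 73.3 and 74.4 CPM on day 7. Jag1 in dendritic-like cells, where 3.96% of all genes changed, was 76.97 and 38.00 CPM on day 1 and 19.1 and 10.5 CPM on day 7 and fell (log2 fold change -1.99, SE 0.441, adjusted p = 0.0373, edgeR). In these cells 7 of 18 marker lists were lower on day 7, among them biliary epithelial markers, 8 of 10 and none at 0, at 105 to 145 CPM on day 1 and 66.4 to 74.8 CPM on day 7. Their part in either result was not tested. Within the dendritic-like cluster led by Cst3 and Ccl17, Jag1 was 80.5 and 36.9 CPM on day 1 and 14.3 and 6.22 CPM on day 7, and within the one led by Siglech it was 38.6 and 44.5 CPM and 60.2 and 49.8 CPM, higher on day 7 in both arms. In endothelial-like and mural-like cells, the classes with the highest Notch4, Dll4, Notch3 and Jag1, 0 of 8 and 0 of 6 members passed, where 3.05% and 4.82% of all genes changed, and none had an unadjusted p under 0.05 (edgeR). Notch4 in endothelial-like cells was 86.2 and 89.4 CPM on day 1 and 86.1 and 82.1 CPM on day 7 (log2 fold change -0.13, SE 0.238, adjusted p = 0.788, edgeR). Hes1 in mural-like cells was 455 and 306 CPM on day 1 and 471 and 541 CPM on day 7 (log2 fold change 0.40, SE 0.28, adjusted p = 0.451, edgeR). Members in monocyte and macrophage-like (0 of 6), neutrophil-like (0 of 4) and tuft-like cells (0 of 4) did not pass either, against 2.19%, 1.9% and 1.2% of all genes.

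**Figure D5:**
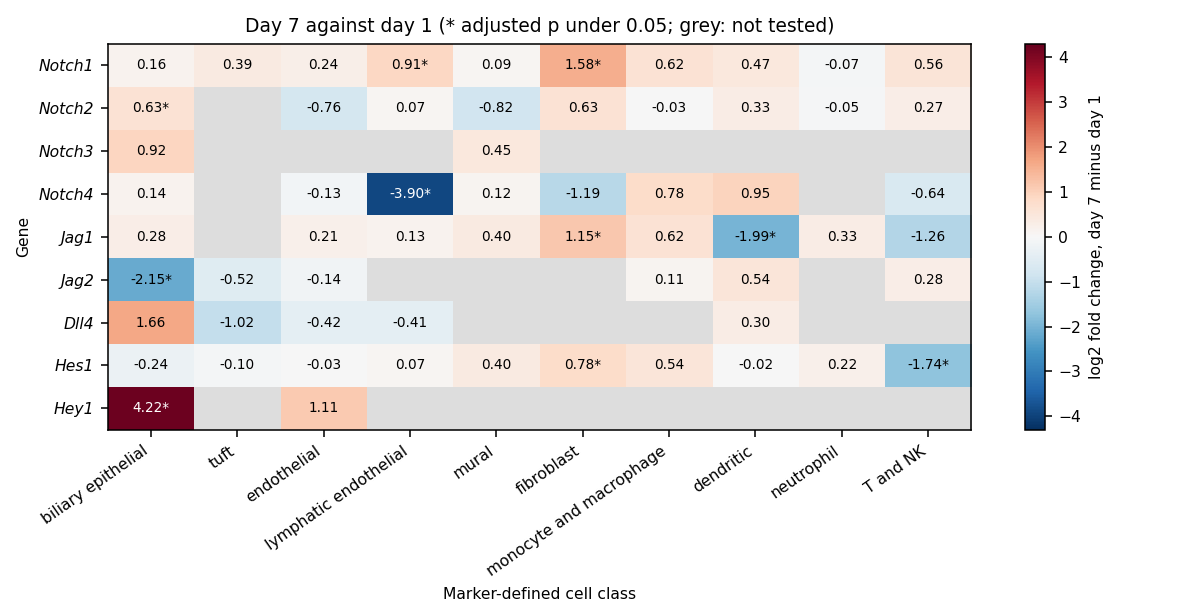
Log2 fold change of each tested member from day 1 to day 7 after transplantation, as colour and number, with genes in rows and cell classes in columns. A star marks an adjusted p under 0.05 in edgeR and grey marks combinations that were not tested. The 10 stars lie in biliary epithelial-like, fibroblast-like, lymphatic endothelial-like, T and NK-like and dendritic-like cells.

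Of the other pathway genes, 11 of 211 combinations changed between the days, 8 up and 3 down, and 45 had an unadjusted p under 0.05, where 9.92% of all combinations passed. The counts were 5 of 27 in biliary epithelial-like and 4 of 25 in fibroblast-like cells, where 27.8% and 29.4% of all genes passed. With so few genes, no difference from those shares is read from the counts. In biliary epithelial-like cells all 5 calls rose, led by the glycosyltransferase Lfng (log2 fold change 2.21, adjusted p = 0.0444), Maml2 (log2 fold change 1.90, adjusted p = 0.0382) and the gamma-secretase subunit Psen2 (log2 fold change 1.38, adjusted p = 0.0154, edgeR). In fibroblast-like cells the gamma-secretase subunits Psenen (log2 fold change 0.77, adjusted p = 0.0251) and Ncstn (log2 fold change 0.61, adjusted p = 0.0435) rose, and Dtx4 (log2 fold change -1.34, adjusted p = 0.0325) and Rfng (log2 fold change -0.67, adjusted p = 0.0387, edgeR) fell. The protease Adam10 rose in lymphatic endothelial-like cells (log2 fold change 1.20, adjusted p = 0.00173), and Psen2 fell in dendritic-like cells (log2 fold change -2.30, adjusted p = 0.0245, edgeR). The Adam10 value comes from the fit with barely more samples than coefficients.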

How the data were processed

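Single-cell RNA libraries of rat bile duct were deposited by the authors as raw UMI counts for every barcode. The matrix headers name Cell Ranger 4, and the submitters' processing notes name Cell Ranger 5.0.1 and Seurat 3.2.0. The genome build is not given in the sources used here, so no coordinates or sequences are printed. Depth was 14398295 to 109245177 UMIs per library, and levels of genes with few UMIs are correspondingly imprecise. One further raised-flow day 3 library was not analysed here.

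From these counts, barcodes were kept with 400 to 6000 genes, at most 25% mitochondrial and at most 3% haemoglobin UMIs. Doublets were removed as the cells whose score against simulated doublets exceeded percentile 92.5. In a check, the score marked 250 of 500 merged pairs of cells. Cells were clustered (2000 variable genes, 30 components, leidenalg 0.10.2, resolution 0.9) without Notch pathway genes, since pathway genes were to be compared. A cluster was called X-like from at least 3 listed markers, and clusters whose leading genes went against a name stayed unnamed. These naming rules were completed after leading genes had been seen, and the names may differ from those of the study. Near-empty barcodes, of 100 UMIs or fewer, gave the free RNA profile.

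UMIs were summed per sample and class (at least 20 cells). They were tested with the quasi-likelihood test of edgeR 4.0.16 (TMM, filterByExpr, Benjamini-Hochberg over all genes tested in a class, threshold 0.05), after a check on simulated data of transplant against sham in endothelial-like cells (9771 genes), in which it recovered 11 of 100 genes changed by 1 and 72 of 100 changed by 2 on the log2 scale, with 3.49% of calls false. The test of day 7 against day 1 had the arm as a term, and the tests between classes had the sample. The SE given with an edgeR value is its absolute log2 fold change divided by the square root of its F statistic. It is not a standard error estimated by the model. Alternatives were DESeq2 1.42.0, library size scaling, no filter, libraries as samples, free RNA subtraction, doublets kept, finer clustering (resolution 2), other blocks and leaving out each sample. On the same simulated data DESeq2 recovered 25 of 100 genes changed by 1 and 84 of 100 changed by 2, with 14.8% of calls false. Dropping the 2 transplant day 3 libraries with many haemoglobin-rich barcodes was chosen after seeing the data. The 9 members, the 30 other pathway genes and the marker lists were chosen with earlier results of these data known. The text names all members, up to 3 other pathway genes in each direction that passed in a class and comparison, and the 3 genes most like each member, except 1 pathway gene that is not reported here. The other pathway genes given by level, and the finer clusters, were chosen after their values were seen.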

Additional observations from a re-analysis of the deposited data

How the results depend on the processing

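The comparisons of endothelial-like with biliary epithelial-like, mural-like with biliary epithelial-like and endothelial-like with mural-like cells gave 8, 4 and 8 calls when each sample was left out in turn. No pair in the order of classes passed under any alternative run. The smallest possible sign-flip p rises when a sample is left out, so those runs could hardly have given a pass and say little. In the comparison of mural-like with biliary epithelial-like cells, 2 values that had not passed the threshold changed sign. Dll4 (reported as -0.031) was 0.060 with DESeq2, 0.098 with doublets kept, 0.40 with finer clusters and between -0.27 and 0.21 when a sample was left out. Hes1 (reported as 0.070) was -0.0162 with doublets kept, -0.060 with libraries as samples, -0.013 without the filter and between -0.088 and 0.16 when a sample was left out. The causes were not tested.

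The 2 member changes between transplant and sham became 3 with DESeq2, 1 with doublets kept, with libraries as samples, without the filter and without the haemoglobin-rich libraries, and 0 to 2 when a sample was left out. It was 0 without sham 2, sham 3, transplant day 1 or transplant day 3. The 1 change between raised flow and sham became 2 with DESeq2 and without the filter, and 0 with libraries as samples and with free RNA subtracted. Leaving out a sample gave 0 to 1, and 0 without either of raised-flow days 1 and 3, either of sham 2 and sham 3, or any transplant sample. Raised flow against transplant kept 0, also with day as the replicate block (7 at an unadjusted p under 0.05, against 3). The 10 changes between days became 8 with DESeq2, 12 with library size scaling, 6 with doublets kept, 5 without the replicate block of the arm, and 0 to 14 when a sample was left out. The arms shared their days: deviations of same-day samples correlated at 0.40 to 0.80 on days 1 and 7 and at -0.14 to 0.46 on day 3, and exceeded 0.1 on all 3 days in 3 of 6 classes, so the pairing by day was present in some classes only. Of the single results under these alternatives, 1189 kept direction and side of the threshold, 121 lost the threshold, 22 gained it and 12 changed sign. The first of these counts includes runs that could not change a result. Leaving out a sham sample, for example, repeats the same fit of day 7 against day 1, which uses no sham sample. Counts of 0 to 81 UMIs limit Hey1 in biliary epithelial-like, Notch4 in lymphatic endothelial-like and Jag2 in monocyte and macrophage-like cells.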

Other observations

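In all, 14488 cells stayed unnamed, and their Notch levels belong in no comparison of the main classes above. They were 9.36% to 15.3% of the cells of the sham samples. In the transplant and raised-flow arms they were 21.9% and 18.6% on day 1, 7.25% and 9.56% on day 3 and 4.89% and 5.89% on day 7. Some were epithelial. In the finer clustering, unnamed clusters led by Wfdc21 (2420 cells), Gkn3 (1456 cells) and Krt17 (1259 cells) had 10, 6 and 10 biliary epithelial markers detected. Another of 840 cells, with Sfn among its leading genes, had 9, and one led by Gpx2 (3556 cells) had 2. A library of transplant day 1 gave 42.0% of the Krt17 cluster. What the absence of unnamed epithelial cells does to the biliary epithelial-like comparisons was not tested. A cluster of 3822 cells in 9 samples, led by Wfdc21, Lypd8 and Duoxa2, held Hes1 at 739 ± 177 CPM (SD, n = 9), Notch2 at 49.8 ± 9.37 CPM and Notch1 at 10.5 ± 2.30 CPM. The named biliary epithelial-like class had means of 498, 30.4 and 54.6 CPM of the same genes. A cluster of 794 cells in 7 samples was led by the mural genes Higd1b, Rgs5 and Cox4i2, with Ccl19 and Apold1 and the endothelial genes Procr, Fabp4, Tm4sf1 and Emcn. It had 9 endothelial and 13 mural markers detected, and its median cell had 2.34 times the median UMIs of its library. Whether these are merged cells was not tested. It held Jag1 at 136.9 ± 54.4 CPM (SD, n = 7), Notch4 at 53.7 ± 22.7 CPM, Jag2 at 43.5 ± 15.5 CPM, Dll4 at 41.6 ± 12.7 CPM and Notch3 at 10.4 ± 4.54 CPM. A cluster of 1722 cells with at least 20 cells in 5 samples, led by Prkch and Rnf213, had few counts, with a median of 770 UMIs a cell, 0.244 of the median of its library. It held Notch1 at 302 ± 226 CPM and Notch2 at 148 ± 44.1 CPM (SD, n = 5).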
